A study of Danio rerio with 6 samples.

Results

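The genes described here code for the transforming growth factor beta (Tgf-beta) ligands, for a protein that stores these ligands in the matrix, for 2 of their receptors and for a matrix protein named after its response to Tgf-beta. They were chosen by gene symbol, and 8 of the 9 named genes had a row among the 32520 genes of the table. The remaining gene, *ltbp3*, was not analysed here. All 8 were among the 20691 genes with enough reads to be tested, which here means a normalized count of 10 or more in 3 or more libraries.

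RNA-Seq was performed on heads of zebrafish larvae at 10 days post fertilization (dpf), with 3 pools of homozygous *fbln1* mutants (genotype ulg075) and 3 pools of WT larvae (genotype ABwt), all with the AB strain as background. The ulg075 line carries a short deletion in the coding region of *fbln1*, which codes for the extracellular matrix glycoprotein fibulin 1. Larvae came from crosses of heterozygous parents, were genotyped on the rest of the body, and 21 heads were joined per pool in independent batches. The labels give the growth protocol of the AB transgenic line ulg071 Tg for both groups. The mutant group rests on 1 mutant line, ulg075. The comparison asks how mRNA levels in the head differ between *fbln1* mutants and WT.

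Tgf-beta ligands are secreted in a latent form, bound to their own propeptide and through it to latent Tgf-beta binding proteins, which anchor them to fibrillin and fibronectin in the extracellular matrix. Once freed by integrins or proteases, a ligand brings together a type II and a type I receptor kinase, the type I receptor phosphorylates Smad2 and Smad3, and these move with Smad4 to the nucleus and act on target genes. In cartilage and bone this pathway is known for its part in matrix production and in the balance between growth and maturation of chondrocytes and osteoblasts. Zebrafish carry many of the genes in duplicate, marked a and b.

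The libraries held 15174207 to 18721515 reads counted on genes, and 3 reads stood at 2.60 to 3.20 normalized counts. The first principal component (67.3% of the variance) parted the mutant from the WT pools, and the second (10.2%) set pool 2 of each genotype apart from the other pools. The targeted gene *fbln1* stood at 77.4, 136 and 70.4 in WT pools and at 93.2, 53.1 and 39.9 in mutant pools, in normalized counts (log2 fold change -0.63, adjusted p = 0.162, limma). The genotypes overlapped for this gene, and it was not called. The paper reports lower *fbln1* mRNA in the mutant and reads this as partial degradation of the RNA. A short deletion can leave most of the transcript to be counted, so this level is no check of the genotype. Among fixed marker lists, which bear on the label "heads", posterior Hox genes had at most 17.7 normalized counts in any pool, with *hoxa11a* at 0 in all, while neuron and forebrain genes were detected in every pool. Genes of exocrine pancreas and liver also had high summed levels in WT pools (values below), so the lists do not settle which tissue the pools held. The methods of the study describe pooled heads, whereas its results name whole larvae. Several lists of tissue markers moved with genotype. Genes of the intestine (9 of 9 called higher, summed level 949.6 to 1203 in WT and 15921 to 37067 in mutant pools), exocrine pancreas (7 of 7, 76298 to 135834 and 135492 to 223527), liver (4 of 6, 16891 to 21134 and 32739 to 36766), skin (5 of 5, 13158 to 16858 and 49466 to 69643) and skeletal muscle (5 of 5, 34731 to 53029 and 69484 to 99137) were higher in the mutant. The same held for cartilage (6 of 8, 1268 to 1668 and 7150.2 to 8977), bone (5 of 6, 146 to 196 and 1326 to 1967, with *bglap* at 0 in all pools) and connective tissue (5 of 7, 1665 to 1831 and 8180.5 to 11106). Of macrophage and microglia genes 2 of 9 were called higher (11607 to 13209 and 13774 to 16291), a share near the 15.4% of all tested genes called higher, and of 7 neuron genes none was called in limma, at 41258 to 41779 in WT and 36404 to 38580.2 in the mutant. For 3 of the 9 intestine genes and 2 of the 5 called bone genes all WT pools were below 10 normalized counts, so that they entered the test through their mutant values and had to differ, and *lct* and *apoa4a* were at 0 in some pools. The part of these tissues in the results on Tgf-beta genes was not tested. In such pools the number of cells of a type, the RNA per cell and the tissue that a pool held cannot be told apart.

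Of the 8 genes, *tgfb1a*, *ltbp1*, *tgfbr2b* and *tgfbi* were higher in the mutant. They passed both limits of the test in limma on log2(normalized count + 1), which were 0.05 for the adjusted p and a change of more than 0.5 on the log2 scale. None was called lower, either with limma or with edgeR or DESeq2. At an unadjusted p under 0.05 the number of lower genes was also 0, beside 21.6% of all tested genes in limma. The other 4 genes, *tgfb1b*, *tgfb2*, *tgfb3* and *tgfbr1a*, were not called. Across all tested genes, 15.4% were called higher, 2.68% lower and 18.1% in either direction. The median log2 fold change of the 8 genes was 0.45, and that of all tested genes -0.03.

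The ligand gene *tgfb1a* (ENSDARG00000041502) is 1 of the zebrafish genes for Tgf-beta 1, the ligand best known from platelets, immune cells and bone matrix. It had 79.5, 82.0 and 85.4 normalized counts in WT pools 1 to 3 and 163, 171 and 134 in mutant pools 1 to 3. The WT pools lay close together, and the lowest mutant pool was well above the highest of them. Mean levels were 82.3 ± 2.94 and 156 ± 19.2 (SD, n = 3 pools per genotype), which gave a log2 fold change of 0.91 (SE 0.15, adjusted p = 0.00157 with limma).

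Its duplicate *tgfb1b* (ENSDARG00000034895) was counted at 31.0, 20.7 and 24.5 in WT and at 17.4, 45.8 and 32.1 in mutant pools. The lowest and the highest of the 6 values were both from mutant pools, and the genotypes overlapped. Its log2 fold change of 0.23 had a 95% interval from -0.58 to 1.04 (adjusted p = 0.662, limma), and it turned to -0.080 without mutant pool 2. The interval still holds a change as large as that of *tgfb1a*.

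For *tgfb2* (ENSDARG00000027087), whose ligand acts in heart, eye and craniofacial development of mammals, the WT pools had 32.0, 43.4 and 34.1 normalized counts and the mutant pools 30.7, 46.9 and 42.5. The values of the genotypes were interleaved, with pool 2 the highest in both. The log2 fold change was 0.12 (95% interval -0.46 to 0.70, adjusted p = 0.755, limma) and fell to -0.0020 without mutant pool 2.

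The third ligand gene, *tgfb3* (ENSDARG00000019367), is needed for fusion of the palate in mammals. Normalized counts were 745, 690 and 676 in WT and 666, 671 and 617 in mutant pools. Every mutant pool was below every WT pool, but by little, and the gap between the nearest pools was smaller than the spread within WT. The log2 fold change was -0.11 (95% interval -0.29 to 0.07, adjusted p = 0.313, limma; -0.07 without WT pool 1 or without mutant pool 3), so that the interval left out a change of the size seen for *tgfb1a* in either direction.

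**Figure D1:**
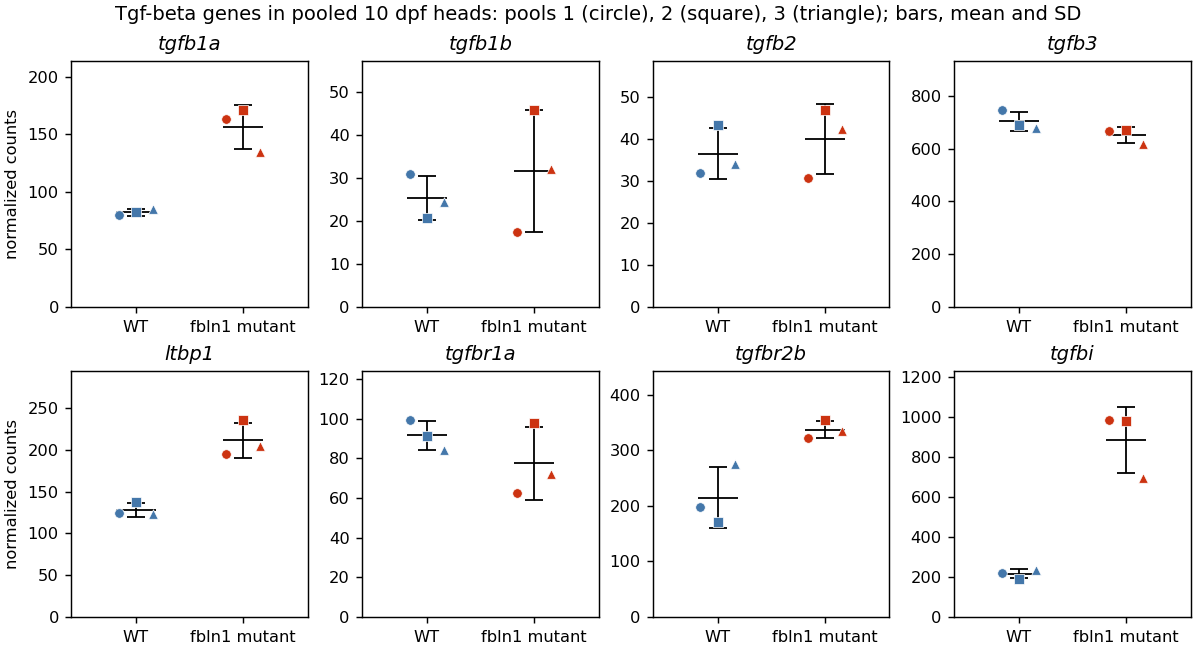
Normalized counts (y axis, from 0, own scale per gene) of the 8 Tgf-beta genes in the 3 WT pools (blue) and 3 *fbln1* mutant pools (red), with the mean and SD of each genotype in black and pools 1, 2 and 3 as circle, square and triangle. For *tgfb1a*, *ltbp1*, *tgfbr2b* and *tgfbi* all mutant pools lie above all WT pools, for *tgfb3* all lie slightly below, and for *tgfb1b*, *tgfb2* and *tgfbr1a* the genotypes overlap.

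The storage gene *ltbp1* (ENSDARG00000056922) codes for a latent Tgf-beta binding protein, which holds the latent ligand in the matrix. WT pools had 124, 138 and 123 normalized counts, and mutant pools 195, 235 and 204. The mutant pools were all higher than the highest WT pool. Means were 128 ± 8.28 in WT against 212 ± 21.3 in mutant pools (SD, n = 3), a change of 0.72 on the log2 scale (SE 0.13, adjusted p = 0.00254 with limma).

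Of the receptor genes, *tgfbr2b* (ENSDARG00000034541) codes for a type II receptor, the kinase that binds the ligand first. It stood at 198, 171 and 276 normalized counts in WT pools and at 323, 354 and 335 in mutant pools. WT pool 3 was nearest to the mutant pools, which lay within a narrow range above it. The means of 215 ± 54.8 and 337 ± 15.8 (SD, n = 3) corresponded to a log2 fold change of 0.68 (SE 0.16, adjusted p = 0.0092 with limma). Without WT pool 3 the log2 fold change was 0.87, and without WT pool 2 it was 0.52, both called.

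The type I receptor gene *tgfbr1a* (ENSDARG00000017494), whose product passes the signal on to Smad2 and Smad3, had 99.1, 91.4 and 84.3 normalized counts in WT and 62.5, 97.9 and 71.9 in the mutant. Mutant pools 1 and 3 were below all WT pools, whereas mutant pool 2 was among them. The log2 fold change was -0.26 (95% interval -0.70 to 0.18, adjusted p = 0.336, limma). It was -0.44 without mutant pool 2 and -0.12 without mutant pool 1, and was called in neither case.

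The largest change among the 8 genes was that of *tgfbi* (ENSDARG00000071586), which codes for the Tgf-beta induced protein, a secreted protein that binds collagen and integrins and was named for its induction by Tgf-beta in human cells. In WT pools it had 219, 192 and 236 normalized counts, and in mutant pools 984, 979 and 693. The lowest mutant pool, pool 3, was still far above every WT pool. With means of 216 ± 21.9 and 885 ± 166 (SD, n = 3), the mutant was 4.11-fold higher, or 2.02 on the log2 scale (SE 0.14, 95% interval 1.71 to 2.33, adjusted p = 4.7e-06 with limma). Ordered by log2 fold change, *tgfbi* was at place 562 of 20691 tested genes.

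**Figure D2:**
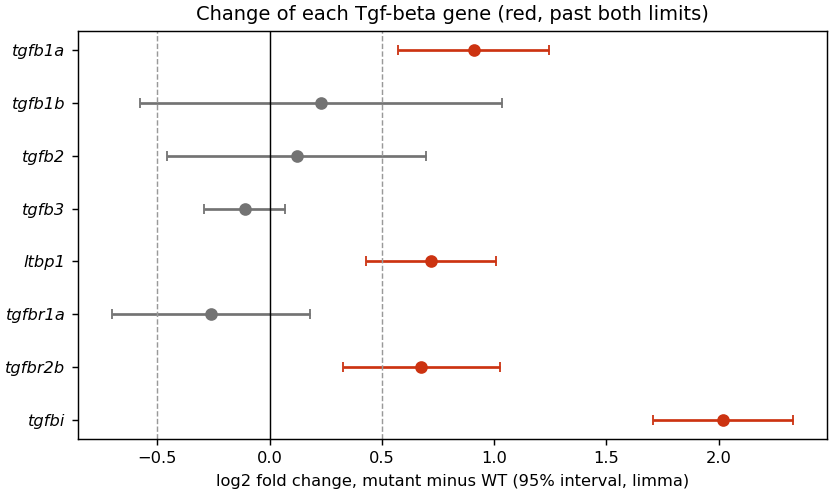
Log2 fold change between mutant and WT (x axis) of the 8 Tgf-beta genes, with 95% intervals from limma; dashed lines mark the limit of 0.5 in either direction and red points passed both limits. The intervals of *tgfb1a*, *ltbp1*, *tgfbr2b* and *tgfbi* lie above 0, from 0.68 for *tgfbr2b* to 2.02 for *tgfbi*, and those of the other 4 genes include 0.

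In 5 of the 8 genes the pools of the genotypes did not overlap, beside 48.8% of all tested genes. Over 17 alternatives of scaling, filter, pseudocount, test and omitted pool, the 4 called genes were called each time. Their log2 fold changes then ranged from 0.84 to 1.01 for *tgfb1a*, from 0.64 to 0.77 for *ltbp1*, from 0.52 to 0.87 for *tgfbr2b* and from 1.93 to 2.19 for *tgfbi*. The highest adjusted p was 0.0497, for *tgfbr2b* in limma without a variance trend.

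Whether a gene moved apart from its duplicate, its partner or another ligand gene was examined by the ratio of both genes within each pool, for 5 pairs. On the log2 scale the mean difference of a ratio is the difference between the fold changes of its 2 genes. It thus restates the changes given above and is no separate evidence. With 3 pools against 3, an exact permutation test cannot give a two-sided p below 0.1, so no pair could pass 0.05. Levels of different genes are not compared here, since counts also depend on transcript length; what is compared is the same ratio between genotypes. The ratio of the type II receptor gene *tgfbr2b* to the type I receptor gene *tgfbr1a* was 2.00, 1.87 and 3.28 in WT pools and 5.16, 3.62 and 4.66 in mutant pools. No WT pool reached the lowest mutant pool, with a mean difference of 0.94 on the log2 scale (exact permutation p = 0.1, 0.25 after Benjamini-Hochberg adjustment over the 5 pairs). The ratio of *tgfb1a* to *tgfb3* likewise did not overlap between genotypes, at 0.107, 0.119 and 0.126 in WT and 0.245, 0.255 and 0.218 in the mutant. Its mean difference was 1.02 on the log2 scale (exact permutation p = 0.1, adjusted 0.25).

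The remaining pairs overlapped. The ratio of *tgfb1a* to its duplicate *tgfb1b* differed by 0.68 on the log2 scale, largely through mutant pool 1, where it was 9.35, against 3.73 and 4.19 in the other mutant pools and 2.57 to 3.95 in WT (exact permutation p = 0.2, adjusted 0.333). As this test cannot give a p below 0.1, it cannot settle whether the duplicates responded differently. The receptor duplicates gave mean log2 differences of 0.33 for *tgfbr2b* to *tgfbr2a* (exact permutation p = 0.3, adjusted 0.375) and 0.17 for *tgfbr1a* to *tgfbr1b* (exact permutation p = 0.6, adjusted 0.6).

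**Figure D3:**
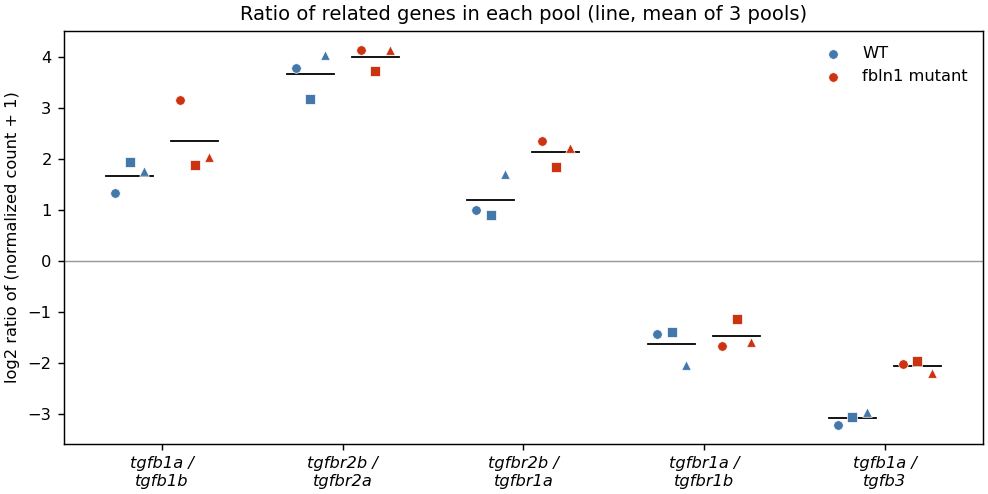
Log2 ratio of the (normalized count + 1) of 2 related genes (y axis) in each WT pool (blue) and *fbln1* mutant pool (red); the black line is the mean of 3 pools, and the circle, square and triangle are pools 1, 2 and 3. The genotypes do not overlap for *tgfbr2b* to *tgfbr1a* and for *tgfb1a* to *tgfb3*, and they overlap for the other 3 pairs, where *tgfb1a* to *tgfb1b* is highest in mutant pool 1.

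The other genes of the pathway were read from lists written by role, with earlier results of these data known. The lists held 85 symbols, and 78 gene rows were tested. Of these 78, 18 were called higher and 7 lower, beside 15.4% and 2.68% of all tested genes, and 53 were not called. The median of the 78 log2 fold changes was -0.02. Higher calls came from the lists of latency and activation and of response genes, and lower calls from the other ligands, receptors and inhibitors. The 18 higher calls were 16 to 20 with 1 pool left out. The 7 lower calls varied more, as 3 without WT pool 1, 11 without WT pool 2, 2 without WT pool 3 and 3 without mutant pool 2.

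Genes for the storage and release of latent Tgf-beta were the part of the pathway next to *ltbp1*. Of 18 tested, 5 were called higher and none lower, in limma, edgeR and DESeq2 alike, beside 15.4% and 2.68% of all tested genes in limma. At the adjusted p alone 8 were higher and 0 lower, beside 18.9% and 15.1% of all tested genes, and at an unadjusted p under 0.05 the counts were again 8 and 0, beside 23.2% and 21.6%. The list's median log2 fold change was 0.40. The largest change was that of *fbn2b*, a gene for fibrillin, the microfibril protein that carries latent binding proteins, with 28.9, 33.9 and 39.5 normalized counts in WT and 170.1, 171 and 193 in mutant pools (log2 fold change 2.36, adjusted p = 9.5e-06, limma). The genes *mmp2*, for a matrix metalloproteinase (1.69, adjusted p = 8.52e-06), *itgb6*, for an integrin chain that in mammals activates latent Tgf-beta (1.24, adjusted p = 0.00287), and *emilin1b*, for a matrix glycoprotein that in mice limits processing of the Tgf-beta precursor (1.00, adjusted p = 0.00325), also rose, each with the limma log2 fold change in parentheses. The members of this list thus include activators and a restraining factor. None of the 4, which were named for their large changes, overlapped between genotypes. Over the list, 11 of 18 genes did not overlap, beside 48.8% of all tested genes.

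Among the other receptors the called genes were lower. Of 11 tested, 3 were called lower and 7 were lower at the adjusted p alone, beside 2.68% and 15.1% of all tested genes. The list median was -0.39, and 1 gene was higher at an unadjusted p, beside 23.2% of all tested genes. All 3 called genes code for activin type II receptors, which bind activins and related ligands. For *acvr2ba*, WT pools had 235, 206 and 205 normalized counts and mutant pools 118, 125 and 146. All mutant pools were below all WT pools, with a log2 fold change of -0.73 (adjusted p = 0.00258, limma), and this gene was called lower in each of the 17 alternatives. The log2 fold changes of *acvr2ab* and *acvr2bb* were -0.52 and -0.51 (adjusted p = 0.0232 and 0.0102, limma). They lay near the limit of 0.5, and were called lower in 9 and 11 of the 17 alternatives. The duplicates of the receptor genes described above were named after their values were seen. Of these, *tgfbr1b* had 270.5, 243 and 352 normalized counts in WT and 199.8, 217 and 218 in mutant pools. Every mutant pool was lower, and the log2 fold change of -0.43 was past the adjusted p but not the fold limit (adjusted p = 0.0373, limma). For *tgfbr2a*, with 13.4 to 17.9 normalized counts in WT and 17.4 to 26.0 in the mutant, the log2 fold change was 0.35 (adjusted p = 0.454, limma).

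Of 6 other ligand genes of the Smad2/3 branch tested, 2 were called lower with limma and edgeR and 0 with DESeq2. With limma, 2.68% of all tested genes were called lower. The list median was -0.23. Both called genes are listed under the symbol for the beta B chain of inhibin and activin, which is known from gonads, pituitary and eye. How reads shared by similar genes were assigned is not given in the sources used here. The gene *inhbb* (ENSDARG00000040777) had 4482, 2583 and 3882 normalized counts in WT and 2236, 1448 and 2714 in mutant pools. Mutant pool 3 was above WT pool 2, so the genotypes overlapped, with a log2 fold change of -0.78 (adjusted p = 0.0227, limma). The row written *INHBB* (ENSDARG00000103892) was low, with 14.5 to 26.4 normalized counts in WT and 6.25 to 10.4 in the mutant (log2 fold change -1.23, adjusted p = 0.0371, limma), and was called in 11 of 16 alternatives. Its WT values alone were enough to pass the filter on low values. Over the 17 alternatives *inhbb* was called in 12. It was not called without WT pool 1, without WT pool 3 or without mutant pool 2. Nor was it called in DESeq2, or in limma without a variance trend (adjusted p = 0.104, the highest of all alternatives). With the replicate block *inhbb* was called, at adjusted p = 0.000184 (limma).

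The 7 genes of the Smad transducers, which carry the signal from receptor to nucleus, all had lower means in the mutant, with a median log2 fold change of -0.24. The median of all tested genes, -0.03, was also below 0. The share of all tested genes with a lower mean was not counted, for this list or the next. None was called in limma, edgeR or DESeq2, while 2 were lower at the adjusted p alone and 4 at an unadjusted p, beside 15.1% and 21.6% of all tested genes. Among 11 genes for inhibitors and feedback, 9 had a lower mean and the median was -0.37. Of these 11, 2 were called lower and 6 were lower at the adjusted p alone, beside 2.68% and 15.1% of all tested genes. At an unadjusted p, 1 was higher, beside 23.2% of all tested genes. The feedback inhibitor gene *smad7*, which Tgf-beta signalling itself induces in mammalian cells, had 1901, 1330 and 1660 normalized counts in WT and 1139, 834 and 1259 in mutant pools. No mutant pool reached the lowest WT pool, and the log2 fold change was -0.60 (adjusted p = 0.0142, limma). The corepressor gene *skilb* had 2167, 1341 and 1907 normalized counts in WT and 1083, 852 and 1418 in mutant pools, and its log2 fold change was -0.69 (adjusted p = 0.0186, limma). WT pool 2 was below mutant pool 3 for this gene. With 1 of WT pool 1, WT pool 3 or mutant pool 2 left out, neither *smad7* nor *skilb* was called. The same held in limma without a variance trend (adjusted p = 0.0797 and 0.0931), and *skilb* was not called in DESeq2 (adjusted p = 0.055). With the replicate block both *smad7* and *skilb* were called, at adjusted p = 0.000539 and 0.000712 (limma). The labels do not state that a pool number marks a batch.

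Response genes are those known from other cells to rise under Tgf-beta. Of 25 tested, 13 were called higher and none lower in limma, beside 15.4% and 2.68% of all tested genes. The list was written with earlier results of these data known. The paper names *col1a1a* among its most strongly upregulated genes. The counts for this list are thus a description and no separate evidence. In edgeR 13 were also called higher and in DESeq2 12, and the list median was 0.85. At the adjusted p alone, 15 were higher and 4 lower, beside 18.9% and 15.1% of all tested genes, so that the share of lower genes was near that of all genes. The 13 genes comprise 8 for matrix proteins or their crosslinking, 3 *snai* transcription factors and 2 for contractile proteins. The leading genes code for the chains of type I collagen and for periostin, proteins of bone and connective tissue matrix. For *col1a1a*, WT pools had 189, 227 and 177 normalized counts and mutant pools 4892, 4605 and 3464 (log2 fold change 4.43, adjusted p = 3.2e-08, limma). The log2 fold changes of *postnb*, *col1a2* and *col1a1b* were 4.33, 3.85 and 3.00 (adjusted p = 5.8e-07, 5.05e-08 and 3.89e-08, limma), with no overlap of genotypes. Over the list, 19 of 25 genes did not overlap, beside 48.8% of all tested genes. Of this list, *col1a1a* and *col1a2* are also connective tissue markers above, and the cartilage and bone lists moved with the same contrast.

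The following genes of the list, which respond early to Tgf-beta in mammalian cells, were not called; they were picked once their values were known. The connective tissue growth factor gene *ccn2a* had 1282, 1260.0 and 1470.2 normalized counts in WT and 1385, 1208 and 1321 in the mutant (log2 fold change -0.03, adjusted p = 0.787, limma). The transcription factor genes *junba* and *junbb* had log2 fold changes of -0.31 and -0.29 (adjusted p = 0.0134 and 0.0377, limma), past the adjusted p but not the fold limit.

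**Figure D4:**
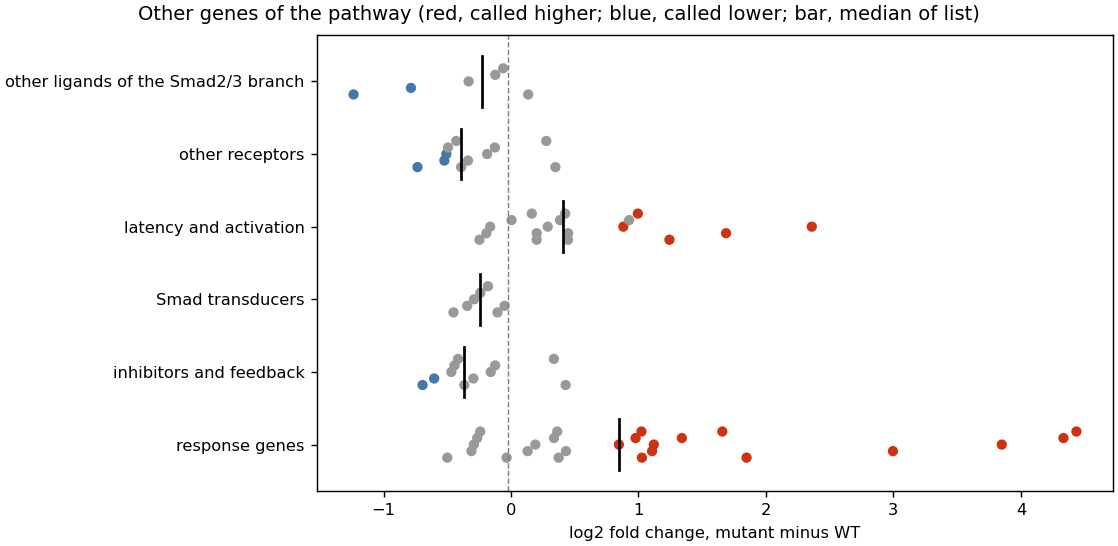
Log2 fold change between mutant and WT (x axis) of each tested gene of the 6 lists of other pathway genes (rows; points are spread vertically for legibility), with the list median as a black bar and the median of all tested genes as a dashed line. Red points were called higher and blue points lower; medians range from -0.39 for other receptors to 0.85 for response genes, and red points occur in the lists of latency and activation and of response genes.

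As a description, the genes whose log2 values followed each called gene most closely over the 6 pools were *ranbp1* and *si:ch211-212k18.7* for *tgfb1a* (Pearson's r = 0.9995 and 0.9991). For *ltbp1* they were *ppp1r3b* and *pgm1* (0.9983 and 0.9971), for *tgfbr2b* *znf408* and *zgc:193711* (0.9957 and 0.9932), and for *tgfbi* *magt1* and *tnnt3a* (0.9986 and 0.9985). WT pools had 3.10, 6.60 and 3.20 normalized counts of *ppp1r3b*, which thus entered the test through its mutant values and had to differ. Both *znf408* and *zgc:193711* were low and were not called (adjusted p = 0.236 and 0.0545, limma). The pools part by genotype, which by itself raises r between genes that are higher in the same genotype. An r above 0.9 was reached by 2954 of 20683 other genes with *tgfb1a*, 2885 with *tgfbi*, 2331 with *ltbp1* and 689 with *tgfbr2b*.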

How the data were processed

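The members and the gene lists were chosen with earlier results of these data known. The authors' reads (stranded polyA libraries) were processed by nf-core rnaseq with GRCz11 and an Ensembl annotation; the read counter is not given in the sources used here. Deposited values are counts divided by 1 size factor per library by the authors (a normalized signal per gene). When divided by the smallest step of each library, 100% of values were whole within 0.1, and these reads were used for count tests. A table of the authors' own comparison (fold changes and p-values) was not used.

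Genes reaching 10 normalized counts in 3 or more of the 6 libraries were compared on log2(value + 1), which understates changes of low genes. The test was limma (version 3.58.1, R 4.3.3), with genotype as the only term, eBayes with a variance trend and Benjamini-Hochberg adjustment over 20691 genes. Calls required adjusted p below 0.05 and a log2 change beyond 0.5 in either direction. The values 0.05 and 0.5 are those of the study, which states its limit for a p-value without saying that it was adjusted. Alternatives were TMM and library size scaling, other filters (none, or 50 normalized counts), pseudocounts of 0.5 and 5, no variance trend, the replicate block, edgeR 4.0.16, DESeq2 1.42.0 and limma-voom on the recovered reads, no fold limit, and each pool left out. The fit was also run on simulated data with as many genes raised as lowered, unlike the calls here, which were mostly higher. Its outcome is not used here as support. Pools of 1 genotype differed beyond sampling noise (chi-square per degree of freedom 5.94 to 16.1); floors cover counting error only.

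Genes named by rule were all members, the called genes of each pathway list (at most the 4 with the largest change), for each called member the 2 genes with the highest correlation, and *fbln1*. Outside this rule some tissue marker genes were named. After their values were seen, *tgfbr1b*, *tgfbr2a*, *ccn2a*, *junba*, *junbb*, *tgfa* and *tgfbrap1* were named as well. Symbols were matched without regard to case.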

Additional observations from a re-analysis of the deposited data

How the results depend on the processing

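The 8 Tgf-beta genes gave 4 higher and 0 lower calls under each of 17 alternatives, and also with no fold limit. Without mutant replicate 2, the log2 fold change of *tgfb1b* was -0.080 (adjusted p = 0.899, limma) and that of *tgfb2* -0.0020 (adjusted p = 0.997), the lowest of ranges that reached 0.59 and 0.29 with 1 pool left out. Among pathway lists, the 7 lower calls became 3 with no variance trend, 3 with DESeq2 and 21 with no fold limit, and with 1 pool left out 2 to 11. Over all genes, the 555 lower calls became 353 with TMM scaling, 320 with edgeR, 312 with limma-voom and 3116 with no fold limit, and 255 to 1105 with 1 pool left out (255 without WT pool 1, 263 without mutant pool 2, 1105 without mutant pool 3); the cause was not tested.

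The labels number the pools 1 to 3 in each genotype and describe independent batches, without stating that a number marks a batch. Deviations of same-numbered pools from their genotype means correlated at 0.043, 0.149 and 0.041 over all tested genes, and mutant pool 3 correlated best with WT pool 1 (0.048). With the replicate block, 4 of the 8 genes were called higher, 18 and 7 pathway genes higher and lower, and 3241 and 581 of all genes. No call among the Tgf-beta or pathway genes changed, but the adjusted p of *inhbb*, *smad7* and *skilb* was lower than without the block. Replicates are pools of heads, so the p-values weigh the genotype difference against the spread between pools and not between single larvae. Depth limits *tgfb1b*, *tgfb2*, *tgfbr2a* and the row written *INHBB*, which had few reads.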

Other observations

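Another 2 genes whose symbols begin with tgf had rows in the table and are not members of the pathway lists; they are named after their values were seen. The gene *tgfa* codes for transforming growth factor alpha, a ligand of the epidermal growth factor receptor and not of Tgf-beta receptors. Its normalized counts were 341, 332 and 312 in WT pools and 227, 184 and 259.9 in mutant pools. All mutant pools were lower (log2 fold change -0.56, SE 0.13, adjusted p = 0.00909 with limma). For *tgfbrap1*, whose product binds Tgf-beta receptors in human cells, the genotypes overlapped (log2 fold change -0.25, adjusted p = 0.272, limma).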
